A study of Mus musculus with 8 samples.

Results

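67NR, a mouse mammary tumour line that is known as non-metastatic, was compared with 3 lines of the same tumour family, 66c14, 4T1 and 4T1.2. For each gene, the mean of 67NR was set against the mean of the 3 other line means. The description is centred on genes for which both 67NR libraries were above, or both were below, all 6 libraries of the other lines. By this rule, 5653 of the 27179 genes in the table were found, of which 3165 were above and 2488 were below. Of these, 4876 could be tested (2591 above and 2285 below), while 504 had too few counts and 273 were removed by their annotation, and 152 of the genes that were not tested had at most 3 counts in every library.

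The data are RNA-seq read counts from total RNA of the 4 cultured lines, with 2 biological replicates of each and no treatment. The labels name no added allele, and the lines were grown in αMEM with foetal calf serum. The study used these profiles beside imaging of tumour cells in bone, and described 66c14 (spelled 66cl4 there) and 67NR as having low metastatic potential relative to 4T1 and 4T1.2. A single line stood for the non-metastatic phenotype, so that a difference of 67NR from the others cannot be told apart from a difference between cell lines that has no link to metastasis.

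The lines derive from 1 spontaneous mammary tumour of a BALB/c mouse. As background, 67NR forms tumours in the mammary gland that do not spread, and 66c14 reaches the lung. 4T1 spreads to lung and other organs, and 4T1.2 is a subline of 4T1 that reaches bone. In the study, 67NR cells that were injected into the heart did form lesions in bone. To metastasise, carcinoma cells have to loosen contacts with neighbours, degrade matrix, survive in the circulation and grow in a distant organ. Keratins, integrins, proteases, chemokines and interferon responses have been studied in each of these steps.

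Counts per library ran from 37159840 to 66269681, with the smallest total in replicate 1 of 67NR, and levels are given as CPM, which are counts per 1000000 after TMM scaling. Across tested genes, the 2 libraries of a line had a Pearson correlation of log2(CPM + 2) of 0.995 to 0.999, 67NR and 66c14 libraries of 0.967 to 0.97, and 67NR and 4T1 or 4T1.2 libraries of 0.867 to 0.877. These values are across genes, which are not independent replicates. Counts of the replicates differed by more than sampling noise in each line (chi-square over degrees of freedom of 9.59 in 67NR and 53.5 to 70.4 in the others). All p-values measure the spread between cultures of these lines.

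A large part of the transcriptome separated 67NR from the mean of the other lines. Of 13913 genes tested, 4517 (32.5%) were higher and 4174 (30%) were lower in 67NR at an adjusted p under 0.05, which is 62.5% in either direction (Benjamini-Hochberg values from edgeR's quasi-likelihood test). With library totals in place of TMM scaling, the split was 5359 higher and 3280 lower, and the median log2 fold change of all genes was 0.12 rather than 5e-04. In a fit of 2 groups of 2 and 6 libraries, in which the differences among the 3 other lines count as error, 545 genes were higher and 398 lower. For 221 genes, none of them outside the range, this comparison gave no usable standard error, and in 220 of these a line had 0 counts in both libraries.

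Both 67NR libraries were above the 6 others for 18.6% and below for 16.4% of the genes tested (35% in all). The median log2 fold change was 0.79 for the genes above and -0.79 for those below. Over 2-fold differences were found for 1009 genes above and 902 below, and 489 and 481 of them were over 2-fold against each of the 3 lines. The test was passed by 2506 of the genes above and 2174 of those below, which the choice by separate ranges favours, and 4011 other genes passed although their libraries overlapped. Dtx3 was just inside the rule with 41.7 and 49.2 CPM in 67NR against 49.2 to 72.7 in the 6 other libraries, and Slc25a12 was just outside it with 82.9 and 83.7 CPM in 67NR against 60.5 to 82.9 in the 6 other libraries.

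**Figure D1:**
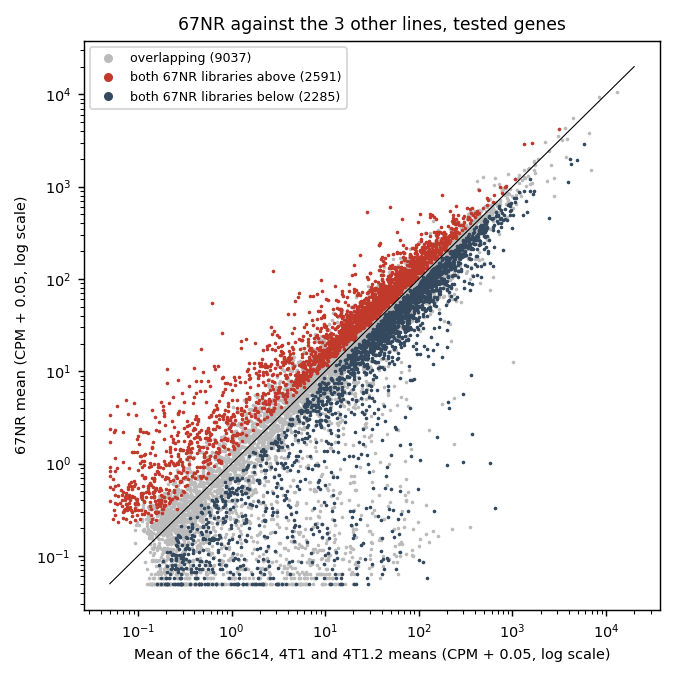
Mean CPM of 67NR (vertical axis) against the mean of the 66c14, 4T1 and 4T1.2 means (horizontal axis) for 13913 tested genes, both as CPM + 0.05 on log scales. Each point is a gene, red where both 67NR libraries were above the 6 others (2591), dark blue where both were below (2285) and grey where they overlapped, and the line marks equal levels.

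66c14 was the line nearest to 67NR for most of these genes. The library closest to the 67NR range came from 66c14 for 65.2% of the genes above and 63.1% of those below. Called genes in the comparisons with single lines, which share the 67NR libraries, were 44.6% of genes tested against 66c14, 68.2% against 4T1 and 67.8% against 4T1.2. In all 3 comparisons, 1491 genes (10.7%) were higher and 1155 (8.3%) lower in 67NR. The median log2 difference of the genes above was 0.57 against 66c14, 0.85 against 4T1 and 0.89 against 4T1.2, and that of the genes below was -0.54, -0.85 and -0.88. For 199 genes above and 109 below, the difference was over 4-fold against 4T1 and 4T1.2 but under 2-fold against 66c14.

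A pair of genes were read at 10 CPM or more in every library of the other lines and at most 3 counts in each 67NR library. Neat1 (chr19:5824708-5845480, GRCm38), the long non-coding RNA around which nuclear paraspeckles are built, was counted over 3177 bases. This is less than the locus spans, so that transcripts of the rest were not measured. Neat1 had 3 and 0 counts in 67NR. Its level was 0.0819 and 0 CPM in 67NR, 137 and 125 in 66c14, 90.3 and 90.8 in 4T1 and 83.2 and 75.3 in 4T1.2, so that the other lines were at least 1540-fold higher on average (bound from 3 counts per library, which covers counting error only). Malat1, the abundant nuclear RNA whose gene starts 29 kb away, had 94.7 and 168 CPM in 67NR, 207 and 101 in 66c14, 189.6 and 158 in 4T1 and 137 and 162 in 4T1.2, with a log2 fold change of -0.27 (SE 0.27, adjusted p = 0.409). Both 67NR libraries thus had reads of this neighbour, at levels that overlapped those of the other lines. Shroom2 (chrX:152609509-152770788), an actin-binding protein of cell junctions, had no count in 67NR, with 10.8 to 19.7 CPM in the other libraries, which is at least 225-fold higher.

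With a level of 1 CPM in place of 10, 11 genes were read in every library but those of 67NR. Beside Neat1 and Shroom2, these were Pxdc1, B3glct, Arhgap29, Slc25a20, Arrdc4, Pdgfc, Msrb2, Fsd1l and Cyp46a1. Pxdc1 had 0.0273 and 0.0162 CPM in 67NR, 4.69 and 6.65 in 66c14, 60.0 and 60.2 in 4T1 and 65.3 and 57.9 in 4T1.2. Slc25a20, the carnitine-acylcarnitine carrier of mitochondria, had 0 and 0.0486 CPM in 67NR, 1.5 and 1.72 in 66c14, 27.2 and 32.5 in 4T1 and 32 and 33.3 in 4T1.2. In both genes, 66c14 was also far below 4T1 and 4T1.2 but above 67NR. Pdgfc, a growth factor ligand, had 0.0273 and 0.0486 CPM in 67NR against 2.28 to 6.03 in the 6 other libraries. The reverse, at least 1 CPM in both 67NR libraries and at most 3 counts in each of the others, was found for 8 genes, which were Gli2, Arhgap15, Dmrtc1a, Kcng4, Cyp2d22, Bmpr1b, Cpa4 and Sis. None of them reached 10 CPM.

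Among genes called in the main comparison and in each comparison with a single line, the 15 with the widest gap below the other libraries included several of the epithelial cytoskeleton and of adhesion. Krt18 (chr15:102028216-102032026), the keratin that pairs with keratin 8 in simple epithelia, had 0.819 and 1.14 CPM in 67NR, 115 and 113 in 66c14, 846 and 1201 in 4T1 and 542 and 624 in 4T1.2. The log2 fold change was -8.66 (SE 0.23, adjusted p = 1.53e-09). The groups were far apart, with 66c14 as the nearest line. Ppl, the plakin periplakin that links keratin filaments to desmosomes, had 0.164 and 0.114 CPM in 67NR, 29.4 and 29.2 in 66c14, 60.6 and 55 in 4T1 and 71.7 and 60.8 in 4T1.2, a log2 fold change of -8.48 (SE 0.19, adjusted p = 5.4e-10). Tns4, a tensin of focal adhesions, had 0.3 and 0.211 CPM in 67NR, 23 and 29.2 in 66c14, 175 and 133 in 4T1 and 269.9 and 244 in 4T1.2, a log2 fold change of -8.67 (SE 0.25, adjusted p = 2.15e-09). All 3 genes were thus near 0 in 67NR and read in each of the other lines, at the lowest level in 66c14.

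Itga8, the integrin alpha chain of a receptor for RGD ligands, had 1.26 and 0.843 CPM in 67NR, 85.8 and 64.1 in 66c14, 57.1 and 59.3 in 4T1 and 175 and 174 in 4T1.2, with a log2 fold change of -6.49 (SE 0.20, adjusted p = 3.08e-09). The tetraspanin Cd81 had 1.88 and 1.95 CPM in 67NR, 29.2 and 30.7 in 66c14, 195 and 244 in 4T1 and 222 and 223 in 4T1.2, with a log2 fold change of -5.88 (SE 0.14, adjusted p = 6.88e-10). Pdzrn3, a ubiquitin ligase with PDZ domains, had 0.273 and 0.195 CPM in 67NR against 7.74 to 105 in the 6 other libraries. For Itga8 the 66c14 and 4T1 libraries lay close together below 4T1.2, whereas for Cd81 and Pdzrn3 the 66c14 libraries lay between 67NR and the other 2 lines.

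Secreted and signalling genes were the next group of these. Igfbp7, a secreted protein that binds insulin-like growth factors, had 3.44 and 4.46 CPM in 67NR, 211 and 224 in 66c14, 163 and 205 in 4T1 and 229.9 and 220.5 in 4T1.2, a log2 fold change of -5.70 (SE 0.16, adjusted p = 1.69e-09). The 3 other lines lay close together for this gene, with 67NR apart. Ccl2, the chemokine that attracts monocytes, had 0.218 and 0.762 CPM in 67NR, 13.6 and 18.3 in 66c14, 50.8 and 53.1 in 4T1 and 28 and 28.5 in 4T1.2, a log2 fold change of -5.70 (SE 0.29, adjusted p = 1.09e-07). Egr1, an immediate early transcription factor, had 0.409 and 0.551 CPM in 67NR, 139 and 135 in 66c14, 62.8 and 38.8 in 4T1 and 109.6 and 107 in 4T1.2, a log2 fold change of -7.51 (SE 0.27, adjusted p = 9.92e-09). Sfmbt1, a chromatin protein with MBT repeats, had 0.218 and 0.227 CPM in 67NR against 22.1 to 49.5 in the 6 other libraries, and its 67NR libraries were almost equal.

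Enzymes made up the rest. Ckb, the brain-type creatine kinase, had 2.08 and 2.06 CPM in 67NR, 39.9 and 37.8 in 66c14, 371 and 477 in 4T1 and 599.7 and 694 in 4T1.2, with a log2 fold change of -6.73 (SE 0.16, adjusted p = 8.47e-10). Pfkm, the muscle-type subunit of phosphofructokinase, had 2.95 and 3.36 CPM in 67NR, 49.8 and 53.6 in 66c14, 65.1 and 70.5 in 4T1 and 97.6 and 90.5 in 4T1.2, with a log2 fold change of -4.44 (SE 0.11, adjusted p = 9.97e-10). B3glct, a glucosyltransferase that modifies thrombospondin repeats, had 0.0546 and 0.0162 CPM in 67NR against 6.7 to 32.5 in the 6 other libraries. Ckb had its highest levels in 4T1.2 and an intermediate level in 66c14, and Pfkm had the same order of lines.

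**Figure D2:**
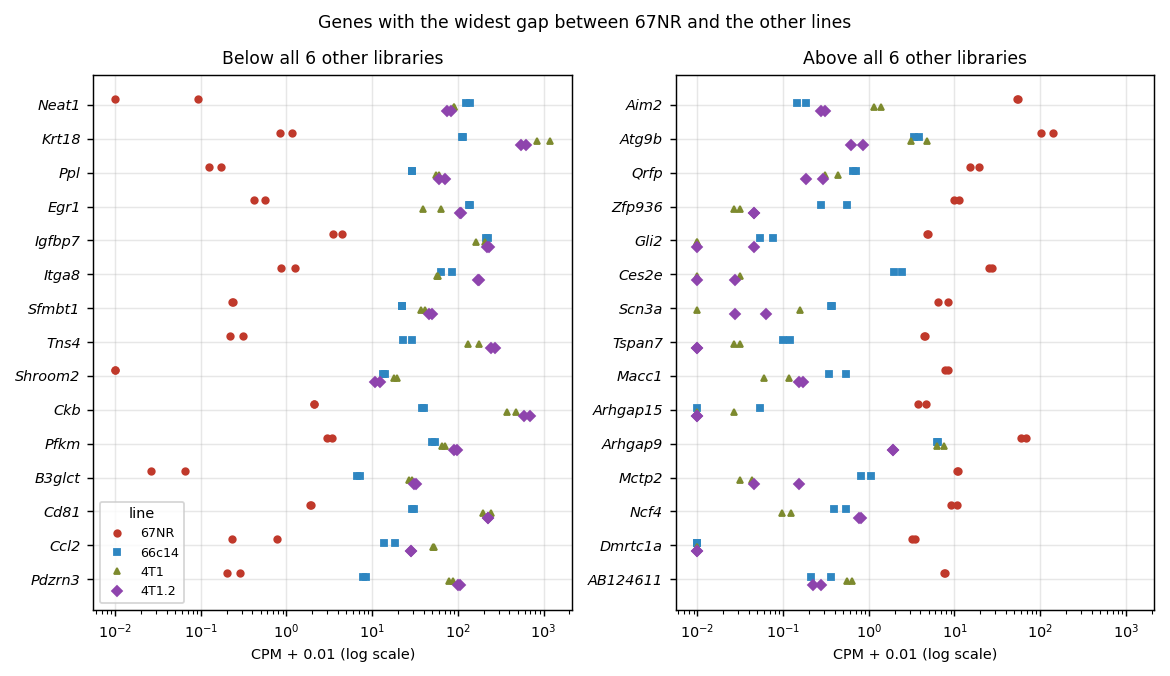
CPM + 0.01 on a log scale (horizontal axis) in each of the 8 libraries for the 15 genes with the widest gap below (left) and the 15 above (right) all 6 other libraries. Symbols and colours mark the line, with 2 libraries each, and 67NR (red circles) stands apart from the 6 other points in every row.

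Of the genes above the other libraries, Aim2 (chr1:173349547-173466040), a cytosolic sensor of DNA that forms an inflammasome, had the widest gap. It had 54.1 and 55.4 CPM in 67NR, 0.177 and 0.134 in 66c14, 1.36 and 1.14 in 4T1 and 0.264 and 0.3 in 4T1.2, and the log2 fold change was 7.15 (SE 0.11, adjusted p = 1.12e-10). Atg9b, a membrane protein of autophagy, had 104 and 141 CPM in 67NR, 3.82 and 3.35 in 66c14, 4.75 and 3.09 in 4T1 and 0.846 and 0.618 in 4T1.2, a log2 fold change of 5.81 (SE 0.16, adjusted p = 1.53e-09). Both genes had some reads in every other library. Ces2e, a carboxylesterase, had 25.3 and 27.1 CPM in 67NR, 1.95 and 2.46 in 66c14, 0 and 0.0216 in 4T1 and 0 and 0.0176 in 4T1.2, a log2 fold change of 8.63 (SE 0.21, adjusted p = 8.23e-10). Here 66c14 was above 4T1 and 4T1.2, which were near 0.

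The GTPase-activating proteins Arhgap9 and Arhgap15 stood on the same side. Arhgap9 had 59.9 and 67.8 CPM in 67NR against 1.89 to 7.6 in the 6 other libraries, and Arhgap15 had 4.59 and 3.78 CPM in 67NR against 0 to 0.0442 in the 6 other libraries. Ncf4, a cytosolic subunit of the phagocyte NADPH oxidase, had 10.7 and 8.98 CPM in 67NR against 0.0863 to 0.794 in the 6 other libraries. These genes are best known from leucocytes, and values for markers of leucocytes are given further on. Macc1, a regulator named for its association with metastasis in colon cancer, had 7.64 and 8.46 CPM in 67NR, 0.53 and 0.335 in 66c14, 0.0492 and 0.108 in 4T1 and 0.159 and 0.141 in 4T1.2, a log2 fold change of 5.55 (SE 0.19, adjusted p = 6.83e-09). It was thus higher in the non-metastatic line than in each of the others.

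Gli2, a transcription factor at the end of the Hedgehog pathway, had 4.83 and 4.8 CPM in 67NR, 0.0442 and 0.067 in 66c14, 0 and 0 in 4T1 and 0 and 0.0353 in 4T1.2. Tspan7, a tetraspanin, had 4.48 and 4.41 CPM in 67NR against 0 to 0.112 in the 6 other libraries, and Scn3a, a sodium channel subunit, had 6.5 and 8.32 CPM in 67NR against 0 to 0.357 in the 6 other libraries. Qrfp, a neuropeptide precursor, Zfp936, a zinc finger protein, Mctp2, a membrane protein with C2 domains, Dmrtc1a and AB124611 were the others. Their levels in 67NR ran from 3.14 and 3.42 CPM for Dmrtc1a to 15.3 and 19.5 CPM for Qrfp, and no other library exceeded 1.04 CPM (Mctp2 in 66c14) for any of these 5.

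By level rather than gap, the 10 most abundant genes with a gap of more than 2 on the log2 scale added others. Rhox5, a homeobox gene of the X chromosome that is typical of the germ line and placenta, had 518 and 538 CPM in 67NR, 80.3 and 78 in 66c14, 3.08 and 4.12 in 4T1 and 0.634 and 0.847 in 4T1.2, a log2 fold change of 6.47 (SE 0.10, adjusted p = 1.12e-10). Trp53i11, named as a gene that p53 induces, had 231 and 236 CPM in 67NR, 24.8 and 23 in 66c14, 43 and 40.8 in 4T1 and 48.1 and 47.4 in 4T1.2, a log2 fold change of 2.68 (SE 0.06, adjusted p = 6.59e-10). Cpt1c, a member of the carnitine palmitoyltransferase family, had 38.2 and 44.4 CPM in 67NR against 0.737 to 5.94 in the 6 other libraries. Rhox5 stepped down from 67NR through 66c14 to 4T1 and 4T1.2, whereas for Trp53i11 the 66c14 libraries were the lowest. Ramp3, a partner of calcitonin-type receptors, Mrgprf, an orphan receptor, and Eepd1, a nuclease-like protein, completed this group with Aim2, Atg9b, Arhgap9 and Ces2e.

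On the lower side, Igfbp4, a secreted protein that binds insulin-like growth factors, had 457 and 461 CPM in 67NR, 2117 and 2249 in 66c14, 1991 and 2244 in 4T1 and 3068 and 3135 in 4T1.2, a log2 fold change of -2.40 (SE 0.10, adjusted p = 2.87e-08). Igf2r, the receptor that clears IGF2 and sorts lysosomal enzymes, had 12.3 and 11.5 CPM in 67NR, 91.1 and 73.2 in 66c14, 220.5 and 156 in 4T1 and 179.5 and 138 in 4T1.2, a log2 fold change of -3.50 (SE 0.19, adjusted p = 1.74e-07). Tgm2, the tissue transglutaminase that crosslinks proteins, had 8.87 and 9.24 CPM in 67NR, 43.2 and 39 in 66c14, 332 and 382 in 4T1 and 672 and 714 in 4T1.2, a log2 fold change of -4.58 (SE 0.11, adjusted p = 8.23e-10). Gcat, an enzyme of threonine breakdown, had 4.64 and 4.59 CPM in 67NR against 32 to 325 in the 6 other libraries, and Cxxc5, a zinc finger protein, had 14 and 15.1 CPM in 67NR against 66 to 162 in the 6 other libraries. Of the 41 genes named by gap or level, 35 passed in the fit of 2 groups, and the 6 that did not were Ces2e, Mctp2, Rhox5, Ramp3, Mrgprf and Tgm2.

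Fixed lists of genes were then read for their members outside the range, beside the 18.6% above and 16.4% below among all genes tested. Their counts of members called higher or lower stand beside the 32.5% higher and 30% lower among all genes tested. List members that passed the test although their libraries overlapped are counted but not named. The lists had been drawn up with results from these libraries known, so that their counts are descriptions.

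**Figure D3:**
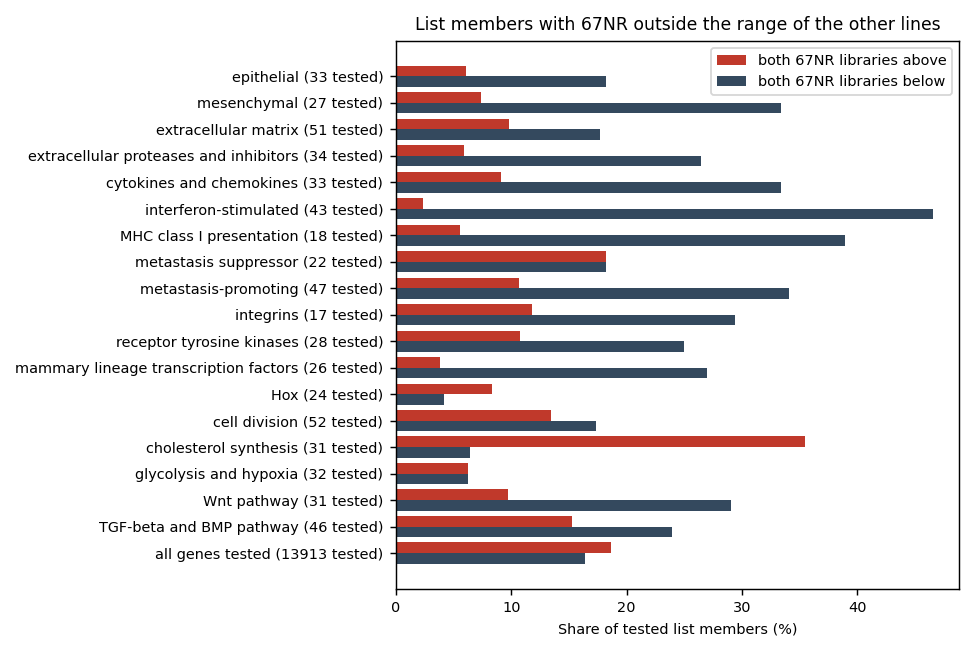
Share of the tested members of each list (horizontal axis, in %) for which both 67NR libraries were above (red) or below (dark blue) all 6 other libraries. The last pair of bars gives all genes tested, 18.6% above and 16.4% below. The interferon-stimulated list has the longest bar below (46.5%), and the cholesterol synthesis list has the longest bar above (35.5%).

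Epithelial genes were mostly lower in 67NR than in the mean of the other lines, at a median log2 fold change of -3.98 against 5e-04 for all genes. Of 33 tested, 5 were higher and 20 lower, with 2 above (6.06%) and 6 below (18.2%) the range. The share below was close to the 16.4% of all genes tested, so most members called lower overlapped another line. Keratin genes led those below. Krt7, a keratin of simple epithelia, had 0.928 and 1.05 CPM in 67NR, 2.45 and 2.57 in 66c14, 447 and 548 in 4T1 and 366 and 420.3 in 4T1.2, a log2 fold change of -6.29 (SE 0.16, adjusted p = 1.03e-09). Krt8, the partner of Krt18, had 464 and 528 CPM in 67NR, 602 and 607 in 66c14, 1263 and 1603 in 4T1 and 907 and 1085 in 4T1.2, a log2 fold change of -0.94 (SE 0.12, adjusted p = 8.01e-05). The 67NR level of Krt8 was thus close to that of 66c14, where Krt18 was far apart, and 22% of its 75-base stretches are shared with transcripts of other genes, mainly a Krt8 pseudogene, so that its counts are less certain. Elf3, an epithelial transcription factor, had 0.3 and 0.373 CPM in 67NR against 0.715 to 16.4 in the 6 other libraries. Dsp, the desmosomal plakin, and Krt19 had 0 counts in replicate 1 of 67NR and 2 and 1 in replicate 2, and the call of Krt19 was lost without either 67NR library. Grhl2 and Muc1 were above the range, both at under 1 CPM in every library.

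Mesenchymal genes did not form the opposite picture. Of 27 tested, 12 were higher and 10 lower, with 2 above (7.41%) and 9 below (33.3%) the range. Vim, the intermediate filament vimentin, had 1894 and 2002 CPM in 67NR, 3541 and 3014 in 66c14, 4747 and 6911 in 4T1 and 4807 and 6103 in 4T1.2, a log2 fold change of -1.27 (SE 0.17, adjusted p = 0.000108). Sparc, a secreted matrix glycoprotein, had 298 and 270.4 CPM in 67NR, 479.8 and 452 in 66c14, 498 and 564 in 4T1 and 519 and 555 in 4T1.2, a log2 fold change of -0.84 (SE 0.09, adjusted p = 1.73e-05). Snai1 and Foxc2, transcription factors that are known to drive the mesenchymal state, had no count in either 67NR library, at most 0.0442 and 0.0223 CPM (Snai1) and 0.0221 and 0.0447 CPM (Foxc2) in 66c14, and up to 22 and 11.2 CPM in the other 2 lines. For both, the distance between 67NR and 66c14 was within a few counts. S100a4, a calcium-binding protein studied as a promoter of metastasis, was above the range with 3070.0 and 2828 CPM in 67NR, 1707 and 1905 in 66c14, 1268 and 1609 in 4T1 and 1553 and 1792 in 4T1.2, a log2 fold change of 0.85 (SE 0.11, adjusted p = 8.62e-05), and 44.8% of its 75-base stretches are shared with another gene model.

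For the extracellular matrix list, 19 of 51 tested genes were higher and 21 lower. Of its members, 5 were above (9.8%) and 9 below the range (17.6%), and the share below was close to the 16.4% of all genes. Laminin chains of the basement membrane were among those below, as Lamb1 had 293 and 291 CPM in 67NR against 468 to 602 in the 6 other libraries and Lamc1 had 169.6 and 159 CPM in 67NR against 218 to 498 in the 6 other libraries, with log2 fold changes of -0.89 (SE 0.11, adjusted p = 5.4e-05) and -1.09 (SE 0.13, adjusted p = 5.78e-05). Thbs2, a thrombospondin, had 0.0273 and 0.0324 CPM in 67NR against 0.151 to 3.48 in the 6 other libraries. Col12a1, a collagen of fibril surfaces, was above the range with 180.1 and 179.8 CPM in 67NR, 156 and 116 in 66c14, 1.83 and 1.36 in 4T1 and 2.98 and 2.61 in 4T1.2, a log2 fold change of 4.40 (SE 0.12, adjusted p = 1.26e-09). Its 66c14 libraries were near 67NR, at a log2 difference of 0.41 (SE 0.14, adjusted p = 0.0431). Of 17 integrin genes, 5 were higher and 10 lower, with 2 above (11.8%) and 5 below (29.4%) the range. Itga6, the laminin-binding alpha 6 chain, had 31.5 and 29.5 CPM in 67NR, 55.2 and 53.3 in 66c14, 212 and 180.0 in 4T1 and 256 and 234 in 4T1.2, a log2 fold change of -2.17 (SE 0.09, adjusted p = 4.05e-08). Itgb4, which pairs with alpha 6, had 96.2 and 104 CPM in 67NR, 80.5 and 76.6 in 66c14, 53.9 and 42.8 in 4T1 and 39.8 and 34.4 in 4T1.2, a log2 fold change of 0.94 (SE 0.10, adjusted p = 1.83e-05). The 2 chains of this receptor were thus on opposite sides of the range. Itga3 was below with 436 and 429 CPM in 67NR against 695 to 1161 in the 6 other libraries.

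Of 34 proteases and inhibitors tested, 8 were higher and 18 lower, with 2 above (5.88%) and 9 below (26.5%) the range. Plau, the urokinase that activates plasminogen, had 0.355 and 0.211 CPM in 67NR, 0.376 and 0.38 in 66c14, 745 and 756 in 4T1 and 1281 and 1109 in 4T1.2, and the log2 difference between 67NR and 66c14 alone was -0.50 (SE 0.32, adjusted p = 0.259). Mmp13, a collagenase, had 1.04 and 0.973 CPM in 67NR, 1.7 and 1.29 in 66c14, 18.2 and 15.9 in 4T1 and 10.8 and 10.2 in 4T1.2, a log2 fold change of -2.69 (SE 0.16, adjusted p = 4.34e-07). Mmp2, a gelatinase, was on the other side with 17.1 and 17.1 CPM in 67NR, 6.76 and 5.27 in 66c14, 1.49 and 1.86 in 4T1 and 0.987 and 0.9 in 4T1.2, a log2 fold change of 3.02 (SE 0.12, adjusted p = 2.38e-08). Plat and Timp1, the tissue-type plasminogen activator and an inhibitor of metalloproteinases, were below by less, with log2 fold changes of -0.77 and -0.43, and the call of Timp1 was lost without replicate 1 of 67NR.

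Chemokine and cytokine genes had 7 of 33 tested members higher and 19 lower, with 3 above (9.09%) and 11 below (33.3%) the range. Beside Ccl2, its neighbour on chromosome 11, Ccl7, had 0.0273 and 0.0162 CPM in 67NR against 0.176 to 0.619 in the 6 other libraries. Ccl5, which attracts T cells, had 2.02 and 1.41 CPM in 67NR, 5.35 and 5.16 in 66c14, 10.4 and 11.7 in 4T1 and 14.3 and 14 in 4T1.2, a log2 fold change of -2.48 (SE 0.16, adjusted p = 6.34e-07). Tslp, a cytokine of epithelia, had 5.41 and 5.82 CPM in 67NR, 6.74 and 9.06 in 66c14, 202 and 235 in 4T1 and 663 and 669.8 in 4T1.2, a log2 fold change of -4.22 (SE 0.14, adjusted p = 6.45e-09). For Tslp the step between 66c14 and the other 2 lines was far larger than that between 67NR and 66c14. Cx3cl1, a membrane-bound chemokine, had 34 and 33 CPM in 67NR against 47.8 to 81.4 in the 6 other libraries, and Cxcl1, a neutrophil attractant, had 45.4 and 34.9 CPM in 67NR against 51.5 to 102 in the 6 other libraries. Related neutrophil attractants were on the other side, as Cxcl5 had 119 and 117 CPM in 67NR, 65.8 and 81.3 in 66c14, 70.5 and 61.5 in 4T1 and 61.5 and 47.9 in 4T1.2, a log2 fold change of 0.88 (SE 0.11, adjusted p = 7.53e-05), and Cxcl3 had 13.5 and 11 CPM in 67NR, 4.29 and 4.71 in 66c14, 0 and 0 in 4T1 and 0 and 0 in 4T1.2, a log2 fold change of 8.67 (SE 0.26, adjusted p = 6.27e-08). The size of this value for Cxcl3 depends on a small count added in the fit, as 4T1 and 4T1.2 had no counts.

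Interferon-stimulated genes were the list with the largest share below the range. All 43 were tested, of which 1 was higher and 35 were lower in 67NR, with 1 above (2.33%) and 20 below (46.5%) the range. The median log2 fold change was -0.96. As background, interferons act through the factor ISGF3, which binds an interferon response element in the promoters of these genes. Promoters from RefSeq (GRCm38.p6, 250 bases before to 50 bases after the start) were written 5′ to 3′ on the strand of the gene. They are shown for 3 of the 5 members below the range whose promoter holds the motif searched for. The other members below the range with a promoter sequence lack it. Capitals mark matches to GAAA, any 2 bases and GAAA again, on either strand and with overlapping matches included.
Isg15, chr4:156200769-156201068, minus strand: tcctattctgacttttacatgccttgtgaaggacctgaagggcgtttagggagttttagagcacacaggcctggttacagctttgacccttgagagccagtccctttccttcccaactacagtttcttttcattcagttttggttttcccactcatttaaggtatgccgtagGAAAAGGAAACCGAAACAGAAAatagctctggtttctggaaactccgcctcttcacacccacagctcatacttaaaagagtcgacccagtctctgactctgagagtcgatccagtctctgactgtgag
Rsad2, chr12:26456403-26456702, minus strand: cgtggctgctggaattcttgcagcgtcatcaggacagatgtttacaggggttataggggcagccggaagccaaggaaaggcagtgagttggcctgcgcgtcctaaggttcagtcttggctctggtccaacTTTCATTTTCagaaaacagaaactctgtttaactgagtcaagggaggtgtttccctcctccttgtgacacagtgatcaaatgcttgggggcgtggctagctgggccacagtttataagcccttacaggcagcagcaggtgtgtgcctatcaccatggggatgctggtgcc
Bst2, chr8:71537423-71537722, minus strand: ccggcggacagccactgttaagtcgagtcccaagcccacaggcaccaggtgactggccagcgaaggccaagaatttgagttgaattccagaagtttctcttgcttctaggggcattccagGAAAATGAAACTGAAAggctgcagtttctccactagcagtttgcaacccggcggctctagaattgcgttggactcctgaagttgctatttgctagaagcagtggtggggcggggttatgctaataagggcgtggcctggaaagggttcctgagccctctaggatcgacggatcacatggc

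This motif was found in 3.49% of 27018 promoters, and in 17 of the 31 list members with a promoter sequence. It was in 5 of 14 members below the range and in 12 of the 17 others, which were not below it. A match is only a description of the sequence. Isg15, a ubiquitin-like protein, had 30.8 and 30.5 CPM in 67NR, 162 and 114 in 66c14, 31.5 and 46.7 in 4T1 and 41.5 and 54.2 in 4T1.2, a log2 fold change of -1.06 (SE 0.18, adjusted p = 0.000727). Rsad2, the antiviral enzyme viperin, had 4.39 and 4.73 CPM in 67NR, 27.7 and 22.7 in 66c14, 8.82 and 10.3 in 4T1 and 18.5 and 17.7 in 4T1.2, a log2 fold change of -1.83 (SE 0.13, adjusted p = 1.13e-06). Bst2, the membrane protein tetherin, had 57.9 and 61 CPM in 67NR, 267 and 237 in 66c14, 68.8 and 91.2 in 4T1 and 92.6 and 99.3 in 4T1.2, a log2 fold change of -1.07 (SE 0.11, adjusted p = 2.42e-05). In each of the 3 genes, 66c14 had the highest and 67NR the lowest levels, and the mean of 4T1 was nearer to 67NR than that of 4T1.2.

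The same order was found for the transcription factors of the pathway. Irf9, the DNA-binding subunit of ISGF3, had 19.4 and 17.4 CPM in 67NR, 111 and 91.7 in 66c14, 21.6 and 27.3 in 4T1 and 41.2 and 43.2 in 4T1.2, a log2 fold change of -1.36 (SE 0.12, adjusted p = 6.71e-06). Irf7, which amplifies the response, had 6.33 and 6.14 CPM in 67NR, 95.2 and 75.9 in 66c14, 7.09 and 9.43 in 4T1 and 12.2 and 13.1 in 4T1.2, a log2 fold change of -1.73 (SE 0.14, adjusted p = 3.79e-06). Irf1 had 91 and 81.3 CPM in 67NR, 142 and 162 in 66c14, 112 and 126 in 4T1 and 134 and 128 in 4T1.2, a log2 fold change of -0.63 (SE 0.09, adjusted p = 0.000152). For all 3 factors the 4T1 libraries were the nearest above those of 67NR. Among sensors and effectors, Dhx58, a helicase related to the RNA sensor RIG-I, had 4.83 and 5.4 CPM in 67NR against 9.29 to 56.2 in the 6 other libraries, Ifih1, the RNA sensor MDA5, had 14.8 and 14.9 CPM in 67NR against 19.6 to 62.5 in the 6 other libraries, and Cmpk2, a mitochondrial nucleotide kinase, had 4.56 and 4.1 CPM in 67NR against 13.1 to 38.6 in the 6 other libraries. Cmpk2 had the largest difference of the list members below, at a log2 fold change of -2.41 (SE 0.13, adjusted p = 1.47e-07), and was highest in 4T1.2. Ifit2 alone was above the range with 78 and 75 CPM in 67NR, 72.2 and 64.8 in 66c14, 21 and 21.9 in 4T1 and 21.3 and 23.7 in 4T1.2, a log2 fold change of 1.25 (SE 0.07, adjusted p = 3.7e-07), and its nearest libraries were those of 66c14. Leaving out 1 library at a time left 32 to 37 members lower and 1 to 3 higher.

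**Figure D4:**
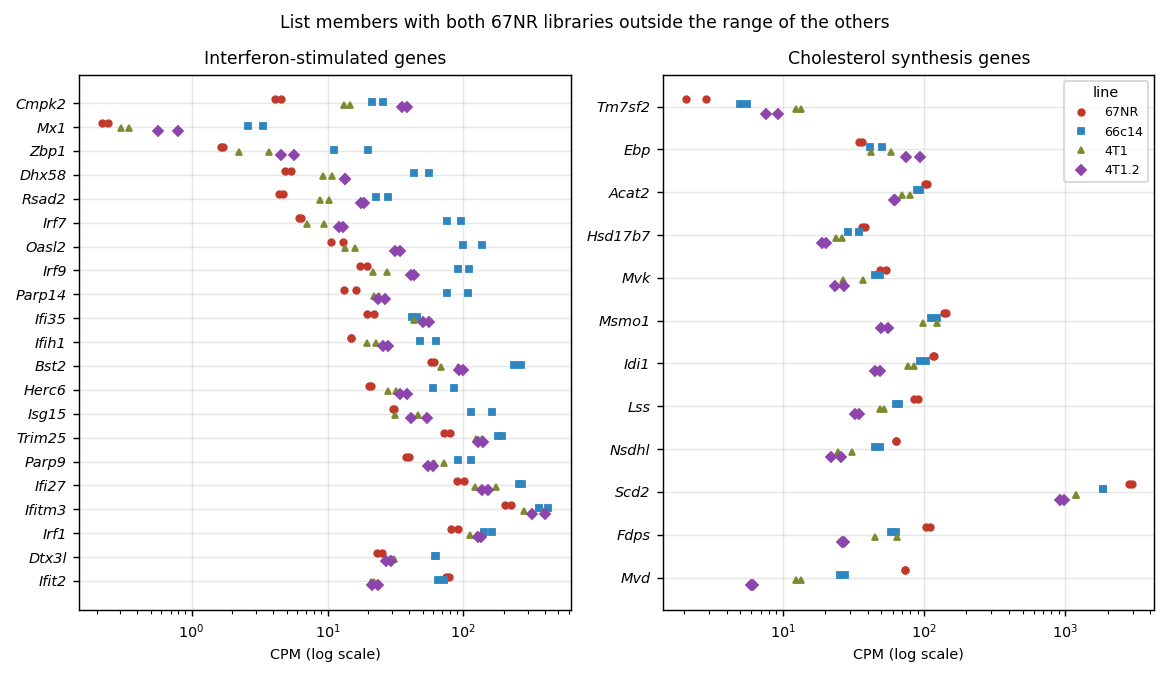
CPM on a log scale (horizontal axis) in each of the 8 libraries for the 21 interferon-stimulated genes (left) and 12 cholesterol synthesis genes (right) with both 67NR libraries outside the range, ordered by their fold change. Symbols and colours mark the line, and 67NR (red circles) is at the left end for 20 genes on the left and at the right end for 10 genes on the right, where 1 more list member above the range is not shown.

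MHC class I genes, which present peptides to T cells and many of which respond to interferon, had 3 of 18 members higher and 11 lower. Of these members, 1 was above (5.56%) and 7 were below (38.9%) the range. Without replicate 1 of 67NR, 6 were lower. Psmb10, a subunit of the immunoproteasome, had 28.7 and 32 CPM in 67NR, 69.7 and 64.9 in 66c14, 66.9 and 93.6 in 4T1 and 88.2 and 98.9 in 4T1.2, a log2 fold change of -1.39 (SE 0.13, adjusted p = 1.15e-05). Erap1, which trims peptides, had 38.2 and 37.8 CPM in 67NR against 60.3 to 75.7 in the 6 other libraries, and Tapbp, which loads them, had 78.8 and 87.5 CPM in 67NR against 102 to 181 in the 6 other libraries. H2-T23, a class Ib heavy chain, had 21.3 and 20.4 CPM in 67NR, 32.8 and 27.9 in 66c14, 76.3 and 118 in 4T1 and 81.1 and 84.2 in 4T1.2, a log2 fold change of -1.58 (SE 0.16, adjusted p = 1.74e-05). Nlrc5, the transcriptional activator of class I genes, was above the range with 23.4 and 22.7 CPM in 67NR, 0.309 and 0.29 in 66c14, 11.2 and 8.59 in 4T1 and 14.1 and 11.1 in 4T1.2, a log2 fold change of 2.78 (SE 0.13, adjusted p = 8.76e-08). It was thus highest in 67NR and lowest, at under 1 CPM, in 66c14.

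Genes known to promote metastasis, as a list, had 11 of 47 tested members higher and 30 lower in 67NR, with 5 above (10.6%) and 16 below (34%) the range and a median log2 fold change of -1.03. Growth factors were among those below. Pdgfb, a ligand of PDGF receptors, had 8.03 and 8.35 CPM in 67NR against 58 to 109 in the 6 other libraries, and Vegfc, which acts on lymphatic vessels, had 8.41 and 7.98 CPM in 67NR, 52.1 and 52.2 in 66c14, 10.9 and 12.7 in 4T1 and 34.3 and 32.4 in 4T1.2, a log2 fold change of -1.74 (SE 0.10, adjusted p = 2.51e-07). Ccn2, a matricellular protein, had 44.2 and 39.6 CPM in 67NR, 111 and 134 in 66c14, 93.9 and 90.4 in 4T1 and 133 and 107 in 4T1.2, a log2 fold change of -1.40 (SE 0.11, adjusted p = 3.75e-06). Met, the receptor of hepatocyte growth factor, had 64.9 and 64.5 CPM in 67NR against 98.3 to 128 in the 6 other libraries, a log2 fold change of -0.80 (SE 0.08, adjusted p = 2.21e-05). Ezr, the membrane-cytoskeleton linker ezrin, had 174 and 164 CPM in 67NR against 310.0 to 386 in the 6 other libraries, a log2 fold change of -1.03 (SE 0.08, adjusted p = 2.31e-06). Lcn2, an iron-trafficking protein, had 0.874 and 1.31 CPM in 67NR against 2.43 to 47.5 in the 6 other libraries. The step from 67NR to the nearest library was larger for Pdgfb than for the others of this group. Members above the range were S100a4, Ackr3, Itgb4, Angptl4 and Vegfa. Ackr3, an atypical receptor for CXCL12, had 45.8 and 45.3 CPM in 67NR, 15.2 and 13.2 in 66c14, 17 and 21.3 in 4T1 and 11.1 and 11.3 in 4T1.2, a log2 fold change of 1.65 (SE 0.10, adjusted p = 3.08e-07).

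Metastasis suppressor genes were on both sides. Of 22 tested, 10 were higher and 5 lower, with 4 above and 4 below the range (18.2% each). These shares were close to the 18.6% above and 16.4% below among all genes tested, so the list as a whole did not stand out. The tetraspanins Cd82 and Cd9, which are known to restrain cell movement, were below. Cd82 had 69.4 and 78.3 CPM in 67NR, 103 and 101 in 66c14, 128 and 161 in 4T1 and 127 and 132 in 4T1.2, a log2 fold change of -0.75 (SE 0.10, adjusted p = 0.000108). Cd9 had 386 and 379.5 CPM in 67NR, 647 and 667 in 66c14, 552 and 667 in 4T1 and 635 and 666 in 4T1.2, a log2 fold change of -0.74 (SE 0.09, adjusted p = 5.9e-05). Cav1, the coat protein of caveolae, was above with 469 and 464 CPM in 67NR, 367 and 356 in 66c14, 10.8 and 12.4 in 4T1 and 26 and 28 in 4T1.2, a log2 fold change of 3.27 (SE 0.07, adjusted p = 3.78e-10). Cavin2, a protein of the same membrane pits, had 950.0 and 904 CPM in 67NR, 627 and 577 in 66c14, 282 and 351 in 4T1 and 364 and 413 in 4T1.2, a log2 fold change of 1.14 (SE 0.09, adjusted p = 3.56e-06). Map2k7 and Brms1l were above by less, with log2 fold changes of 0.81 and 0.65, and 31.6% of the 75-base stretches of Map2k7 are shared with another gene model.

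Receptor tyrosine kinases had 6 of 28 tested members higher and 13 lower, with 3 above (10.7%) and 7 below (25%) the range. Epha1, an ephrin receptor of epithelia, had 1.15 and 1.18 CPM in 67NR, 3.36 and 4.78 in 66c14, 76.8 and 78.5 in 4T1 and 179.9 and 152 in 4T1.2, a log2 fold change of -5.00 (SE 0.17, adjusted p = 7.73e-09). Mertk, which takes part in the uptake of dying cells, had 0.137 and 0.0811 CPM in 67NR, 0.685 and 0.692 in 66c14, 14.2 and 12.1 in 4T1 and 14.8 and 12.7 in 4T1.2, a log2 fold change of -5.58 (SE 0.26, adjusted p = 7.04e-08). Alk was above the range with 0.846 and 1.07 CPM in 67NR against 0.0221 to 0.147 in the 6 other libraries. Epha1 and Mertk were low in 66c14 also, and 67NR was lower still.

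Transcription factors of the mammary lineage had 6 of 26 members higher and 11 lower, with 1 above (3.85%) and 7 below (26.9%) the range. Gata3, which maintains luminal cells, had 77.6 and 76.5 CPM in 67NR, 134 and 172 in 66c14, 139 and 108 in 4T1 and 160.3 and 121 in 4T1.2, a log2 fold change of -0.85 (SE 0.14, adjusted p = 0.000609). Hes1, a target of Notch signalling, had 18.6 and 18.8 CPM in 67NR, 75.8 and 75.7 in 66c14, 81.2 and 78.8 in 4T1 and 106 and 108 in 4T1.2, a log2 fold change of -2.21 (SE 0.08, adjusted p = 7.37e-09). Tfap2c, an AP-2 factor, had 0 and 0.0811 CPM in 67NR, 0.619 and 0.581 in 66c14, 14.8 and 15.5 in 4T1 and 20.4 and 21.6 in 4T1.2, a log2 fold change of -6.76 (SE 0.33, adjusted p = 9.73e-08). Hes1 was separated from the other 3 lines to a like extent, while Tfap2c followed the 4T1 and 4T1.2 libraries with a further step between 66c14 and 67NR. Of 24 Hox genes tested, 13 were higher and 6 lower, but only Hoxb13 and Hoxc4 were above (8.33%) and Hoxa10 below (4.17%) the range.

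In the Wnt pathway, 5 of 31 tested genes were higher and 16 lower, with 3 above (9.68%) and 9 below (29%) the range. Ligands and receptors were below. Wnt10a had 2.38 and 2.85 CPM in 67NR, 6.5 and 6.03 in 66c14, 46.5 and 57.2 in 4T1 and 47.6 and 49.9 in 4T1.2, a log2 fold change of -3.25 (SE 0.14, adjusted p = 2.9e-08). Fzd7, a Frizzled receptor, had 31 and 28.7 CPM in 67NR, 70.6 and 68.9 in 66c14, 108 and 94.1 in 4T1 and 124 and 112 in 4T1.2, a log2 fold change of -1.66 (SE 0.09, adjusted p = 2.07e-07). Tcf7, a transcription factor of the pathway, had 1.2 and 1.43 CPM in 67NR against 4.38 to 13.8 in the 6 other libraries. Axin2, which is both a target and an inhibitor of the pathway, was above with 8.63 and 8.53 CPM in 67NR, 2.9 and 3.82 in 66c14, 0.0164 and 0 in 4T1 and 0.106 and 0 in 4T1.2, a log2 fold change of 6.05 (SE 0.31, adjusted p = 1.17e-07). Wif1, a secreted inhibitor, had 3.06 and 1.2 CPM in 67NR against 0 to 0.0655 in the 6 other libraries, while Notum, an enzyme that inactivates Wnt ligands, was below with 0.191 and 0.0811 CPM in 67NR against 0.663 to 18.3 in the 6 other libraries. Inhibitors were thus on both sides.

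The TGF-beta and BMP pathway had 15 of 46 tested genes higher and 20 lower, with 7 above (15.2%) and 11 below (23.9%) the range. The share higher was near the 32.5% of all genes tested, and the share above was under their 18.6%. The ligands Tgfb2 and Tgfb3 were below. Tgfb3 had 30.4 and 27.7 CPM in 67NR, 124 and 120.4 in 66c14, 71.8 and 80.0 in 4T1 and 102 and 94.1 in 4T1.2, a log2 fold change of -1.74 (SE 0.09, adjusted p = 1.11e-07), and Tgfb2 had 5.24 and 4.88 CPM in 67NR against 9.89 to 46.3 in the 6 other libraries. Secreted antagonists of activins and BMPs were above, as Fst, follistatin, had 110.5 and 112 CPM in 67NR, 43 and 53.7 in 66c14, 4.31 and 4.08 in 4T1 and 5.2 and 5.53 in 4T1.2, a log2 fold change of 3.44 (SE 0.09, adjusted p = 9.8e-10), and Grem1, gremlin, had 65.7 and 55.9 CPM in 67NR, 32.6 and 28 in 66c14, 0 and 0 in 4T1 and 0 and 0.0529 in 4T1.2, a log2 fold change of 8.88 (SE 0.22, adjusted p = 3.63e-09). The size of the value for Grem1 depends on a small count added in the fit, as 4T1 and 4T1.2 were at or near 0. The antagonist Chrd, chordin, had no count in 67NR and 0.0442 to 8.28 CPM in the others. The type I BMP receptors Bmpr1a and Bmpr1b were outside the range, in opposite directions. Bmpr1a had 140.5 and 134 CPM in 67NR against 198 to 269 in the 6 other libraries, and Bmpr1b, read in 67NR alone at 1 CPM, had 2.59 and 1.72 CPM in 67NR against 0 to 0.0328 in the 6 other libraries.

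Cell division genes were balanced, with 11 of 52 tested members higher, 14 lower and 27 without a call, and a median log2 fold change of -0.06. Among regulators of the G1 phase, Cdkn1a, the cyclin-dependent kinase inhibitor p21, had 437 and 455 CPM in 67NR, 134 and 159.8 in 66c14, 29.4 and 31.1 in 4T1 and 21.2 and 21.3 in 4T1.2, a log2 fold change of 3.29 (SE 0.07, adjusted p = 5.4e-10). Rb1, the retinoblastoma protein, had 62 and 63.6 CPM in 67NR, 38.8 and 39.5 in 66c14, 19.2 and 16 in 4T1 and 24.8 and 25.1 in 4T1.2, a log2 fold change of 1.28 (SE 0.08, adjusted p = 4.69e-07). Trp53, which encodes p53, had 233 and 241 CPM in 67NR, 187 and 218 in 66c14, 49 and 38.7 in 4T1 and 52.8 and 39.1 in 4T1.2, a log2 fold change of 1.67 (SE 0.12, adjusted p = 1.23e-06). All 3 were above the range, with 66c14 between 67NR and the other lines. Ccne1 and Ccne2, the E-type cyclins, were also above, with log2 fold changes of 0.69 and 0.69. The share of the list above the range (13.5%) was under the 18.6% of all genes tested. Top2a, Cdk1, Aurka and Nusap1 were among the members below the range, whose share of the list (17.3%) was near the 16.4% of all genes. Top2a, the topoisomerase of dividing cells, had 854 and 804 CPM in 67NR, 1173 and 1091 in 66c14, 1930.0 and 1720.0 in 4T1 and 2068 and 1911 in 4T1.2, a log2 fold change of -0.95 (SE 0.09, adjusted p = 1.25e-05). Birc5, survivin, went the other way with 452 and 452 CPM in 67NR against 243 to 431 in the 6 other libraries.

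Cholesterol synthesis was the list with most members above the range. Of 31 tested, 19 were higher and 3 lower, with 11 above (35.5%) and 2 below the range (6.45%), and the median log2 fold change was 0.60. As background, the pathway runs from acetyl-CoA through mevalonate and farnesyl pyrophosphate to lanosterol and then to cholesterol. Of the mevalonate steps, Mvd, the mevalonate diphosphate decarboxylase, had 73.4 and 73.6 CPM in 67NR, 25.6 and 27.5 in 66c14, 12.4 and 13.4 in 4T1 and 6.18 and 5.97 in 4T1.2, a log2 fold change of 2.53 (SE 0.07, adjusted p = 1.83e-09). Fdps, the farnesyl pyrophosphate synthase, had 103 and 110.5 CPM in 67NR, 58 and 63.2 in 66c14, 44.7 and 64.6 in 4T1 and 26.2 and 27.3 in 4T1.2, a log2 fold change of 1.26 (SE 0.12, adjusted p = 8.5e-06). Idi1 and Mvk were above by less, with log2 fold changes of 0.71 and 0.62. Mvd was more than 2-fold above every other library, and the lines fell in the order 67NR, 66c14, 4T1 and 4T1.2 without overlap. Fdps (23.5%), Idi1 (16.7%) and Acat2 (33.9%) share 75-base stretches with transcripts of other genes.

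Of the later steps, Lss, which forms lanosterol, had 91 and 84.8 CPM in 67NR, 63.1 and 66.8 in 66c14, 51.8 and 49 in 4T1 and 32.5 and 34.7 in 4T1.2, a log2 fold change of 0.88 (SE 0.07, adjusted p = 3.15e-06). Nsdhl, a sterol dehydrogenase, had 63.7 and 63.3 CPM in 67NR against 22.1 to 49 in the 6 other libraries. Scd2, a fatty acid desaturase that is regulated with the pathway, had 2977 and 2849 CPM in 67NR, 1861 and 1840.0 in 66c14, 1188 and 1198 in 4T1 and 988 and 924 in 4T1.2, a log2 fold change of 1.18 (SE 0.07, adjusted p = 5.55e-07). For each of these genes 66c14 was the nearest line. Tm7sf2 and Ebp, a sterol reductase and a sterol isomerase, were below the range instead, as Tm7sf2 had 2.05 and 2.85 CPM in 67NR against 4.97 to 13.5 in the 6 other libraries and Ebp had 34.6 and 36.4 CPM in 67NR against 41.2 to 93.2 in the 6 other libraries. With every alternative scaling and each library left out, 19 or 20 members were higher and 2 to 4 lower. The letters TCACNCCAC, a form of the sterol response element, were searched for on both strands and were in 1.22% of promoters. They were in none of the 8 promoters held for members above the range and in 1 of 13 held for the other members tested.

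Glycolysis and hypoxia genes had as many members higher as lower (9 each of 32 tested), with 2 above and 2 below the range (6.25% each). Both shares were under the 18.6% above and 16.4% below among all genes tested. Beside Pfkm, Hk1, a hexokinase, was below with 144 and 140.2 CPM in 67NR against 148 to 306 in the 6 other libraries. Car9, the carbonic anhydrase that hypoxia induces, had 164 and 186 CPM in 67NR, 47.6 and 50.3 in 66c14, 54.5 and 85.5 in 4T1 and 2.87 and 2.68 in 4T1.2, a log2 fold change of 3.05 (SE 0.13, adjusted p = 4.11e-08). Car9 was lowest in 4T1.2, with a wide step between 4T1 and 4T1.2.

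The genes above the range were spread unevenly over the genome. On chromosome 3, 55.8% of 668 tested genes were above and 4.64% below, and on chromosome 8, 40.5% of 750 were above and 9.07% below. Together these chromosomes held 10.2% of the tested genes and 26.1% of those above the range. Elsewhere, 15.3% were above and 17.5% below. On chromosome 3, each of 8 windows of 20 Mb had between 37.7% and 65.9% of its genes above. On chromosome 8, the windows from 40 to 80 Mb and from 100 to 120 Mb had 19.2% to 26% above, and the others 52.8% to 58.3%. The lowest share above was on chromosome 14, with 6.04% above and 25.4% below, and chromosome 11 had 25.5% below.

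Genes described above lie on these chromosomes. Of those on chromosome 3, S100a4, Fdps, Bmpr1b, Muc1 and Sis were above the range and Pdgfc and Arhgap29 below it. Of those on chromosome 8, Mvd, Mmp2, Nlrc5, Map2k7, Ces2e and Kcng4 were above and Bst2, Plat, Vegfc, Cx3cl1, Psmb10 and Foxc2 below. Of the genes above the range on these chromosomes, 36.8% were over 2-fold, close to the 39.7% elsewhere. Outside chromosomes 3 and 8, 3643 genes were higher and 3973 lower in the main test, and the median log2 fold change was -0.04.

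**Figure D5:**
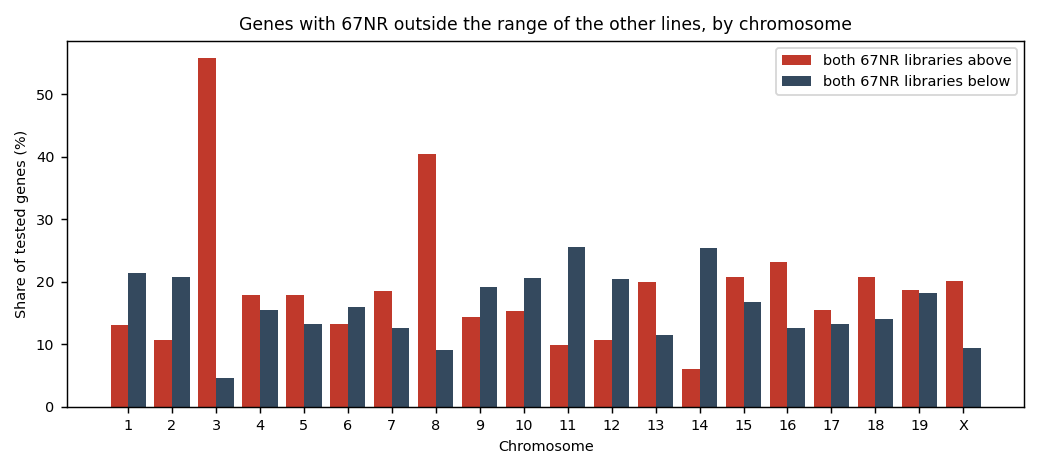
Share of the tested genes of each chromosome (vertical axis, in %) for which both 67NR libraries were above (red) or below (dark blue) all 6 other libraries. Chromosomes 3 (55.8% above) and 8 (40.5% above) exceed the others, whose highest share above is 23.1% on chromosome 16.

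Markers of other cell types were read at low levels in 67NR. Of 18 leucocyte markers 6 could be tested, and Ptprc, which encodes the pan-leucocyte protein CD45, had too few reads. The sum over the list was 26.6 to 27.1 CPM in 67NR and 9.01 to 25.2 in the other libraries, and in 67NR and 66c14 most of it came from Lyz2, a lysozyme, with 22.7 and 22.5 CPM in 67NR, 21.7 and 17.7 in 66c14, 0 and 0.0216 in 4T1 and 0.0705 and 0.0353 in 4T1.2. Endothelial markers summed to at most 1.01 CPM in 67NR and 1.26 to 51.6 in the others, muscle markers to 9.23 to 9.47 against 5.6 to 12.3, and adipocyte markers to 2.21 to 2.43 against 0.529 to 83.7. The part of other cells in the differences was not tested, and in such bulk RNA a smaller number of expressing cells and less RNA per cell cannot be told apart.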

How the data were processed

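RNA-seq libraries (Illumina TruSeq RNA v2, from 100 ng of RNA) of 4 lines, with 2 biological replicates each, were analysed. The authors aligned reads to mm10 with Rsubread, counted reads per Entrez gene by featureCounts, and deposited the raw counts, which are not normalized. The strand setting is not given in the sources used here, so reads of overlapping genes on opposite strands cannot be told apart. The per-sample files (8) held the same values as the columns of the table.

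Of 27179 genes, 25275 (93%) had an entry in the RefSeq gene table of GRCm38. filterByExpr kept 15269, and 13913 were left after removal of ribosomal genes, predicted genes and genes with no entry (5.38% to 7.98% of counts), as the study did. edgeR 4.0.16 (limma 3.58.1, R 4.3.3) fitted a mean per line with TMM scaling, the legacy quasi-likelihood test and a prior count of 0.125, and p-values were adjusted over all genes tested with a threshold of 0.05. Where a line had few or no counts, the size of a log2 fold change depends on the prior count. The biological coefficient of variation was 9.74%. SE values are the log2 fold change over the square root of F and are approximate. The gap of a gene is the distance on log2(CPM + 0.5) from the nearest 67NR library to the nearest other library. Named genes were the 15 widest gaps per direction among genes called in all comparisons, the 10 most abundant per direction with a gap above 2, list members outside the range and genes read on 1 side only. The members, this rule and the 22 lists were chosen with earlier results of these data known. On simulated counts for this comparison over 13913 genes, 88 of 98 genes changed 2-fold and 102 of 102 changed 4-fold were recovered, with 3 false calls. The simulated lines had equal means apart from 200 genes changed in 67NR. In the data 62.5% of genes were called, so these figures do not give the error rates there. Shared 75-base stretches were counted in reference transcripts (GENCODE). A list member outside the range is counted but not reported here. Alternatives were other scalings, filters, tests (DESeq2 1.42.0, limma-voom), contrast weights and libraries or lines left out. Bounds and floors cover counting error only. Figures were drawn with matplotlib 3.10.9 in Python 3.11.15.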

Additional observations from a re-analysis of the deposited data

How the results depend on the processing

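Of the 41 genes named by gap or level, all were called under each alternative except in the fit of 2 groups of libraries (35) and with at least 10 counts in every library, where 22 of them could be tested and were called. The number of genes higher and lower in 67NR was 1253 and 1114 when the test asked for more than 2-fold and 545 and 398 in the fit of 2 groups, in which differences among the other 3 lines enter the error. Without the line 66c14, 5233 genes were above and 5077 below the remaining range, which covers fewer libraries. Under library totals, 2 interferon-stimulated genes were higher instead of 1. At 1 CPM in place of 10, 11 genes in place of 2 were not read in 67NR and 8 in place of 0 were read in 67NR alone, and at up to 10 counts these were 3 and 0.

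Leaving out 1 library at a time gave 3503 to 4777 genes higher and 3118 to 4401 lower, 1 to 3 interferon-stimulated genes higher, 5 to 9 proteases and inhibitors higher and 6 to 12 MHC class I genes lower. The lone 67NR library was then assumed to vary like the other lines. Malat1, without a call in the main test, had a log2 fold change of 0.0861 without replicate 1 of 67NR and of -0.75 without replicate 2. Of the 227 genes named for these fits, not all of which are described above, 141 lost their call in the fit of 2 groups and 87 in the test against 2-fold. Under the other alternatives, 12 of the named genes lost their call at least once, which were Aurkb, Canx, Cst6, Ctsb, Epha2, Itgav, Itgb1, Krt19, Lama5, Mmp19, Tfap2a and Timp1. The cause was not tested.

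With a replicate block, 4624 genes were higher and 4266 lower. Deviations of same-numbered libraries from their line means had correlations of -0.342 to 0.688 between lines. The highest was between 4T1 and 4T1.2, and 67NR had 0.338 with 4T1, 0.196 with 4T1.2 and -0.135 with 66c14. Signs thus differed between pairs of lines, and the numbers were not used to pair the cultures in the main fit. Whether same-numbered cultures shared a batch was not tested. With 2 libraries of 1 non-metastatic line, a difference cannot be ascribed to metastatic ability. Depth limits genes far under 1 CPM, as 3 counts of Neat1 were 0.0819 CPM in replicate 1 of 67NR.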

Other observations

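A list of 24 genes that p53 is known to activate was set up after the values of Cdkn1a and Trp53i11 had been seen, so that its counts are descriptions. Of 23 tested, 18 were higher and 2 lower in 67NR, and 16 were above and none below the range of the other lines, with a median log2 fold change of 1.52. Cdkn1a is itself counted among those higher and above. Among all genes tested, 32.5% were higher, 30% lower, 18.6% above and 16.4% below the range. Ccng1, cyclin G1, had 811 and 824 CPM in 67NR, 434 and 372 in 66c14, 59.3 and 64.7 in 4T1 and 65.1 and 72.8 in 4T1.2, a log2 fold change of 2.77 (SE 0.08, adjusted p = 1.86e-09). Zmat3, an RNA-binding target of p53 on chromosome 3, had 182 and 179 CPM in 67NR, 41.8 and 51.9 in 66c14, 12.2 and 9.73 in 4T1 and 13.7 and 10.8 in 4T1.2, a log2 fold change of 3.28 (SE 0.11, adjusted p = 6e-09). Eda2r, a death receptor, had 115 and 113 CPM in 67NR, 64.8 and 60.4 in 66c14, 0 and 0.0432 in 4T1 and 0 and 0.0529 in 4T1.2, a log2 fold change of 8.40 (SE 0.18, adjusted p = 4.43e-10). Against 66c14 alone, the log2 difference of Eda2r was 0.87 (SE 0.15, adjusted p = 0.00111). The size of its overall value depends on a small count added in the fit, as 4T1 and 4T1.2 were at or near 0. For Ccng1, Zmat3 and Eda2r, 66c14 lay between 67NR and the pair of 4T1 lines. Mdm2, the ubiquitin ligase that degrades p53, had 318 and 328 CPM in 67NR against 112 to 236 in the 6 other libraries, and Bax, a mediator of apoptosis, had 285 and 346 CPM in 67NR against 82.2 to 189.8 in the 6 other libraries. Perp was read in 4T1 and 4T1.2 but had no count in 67NR or 66c14.

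A list of 15 Hedgehog pathway genes was likewise written after Gli2 had been seen, and Gli2 is itself counted among those higher and above. Of 12 tested, 7 were higher and 4 lower, with 4 above and 2 below the range, against 18.6% above and 16.4% below among all genes, so that the share below was near the background. Gli1, a transcription factor and target of the pathway, had 5.76 and 4.65 CPM in 67NR, 0.0221 and 0.0223 in 66c14, 0.393 and 0.194 in 4T1 and 0.299 and 0.194 in 4T1.2, a log2 fold change of 5.39 (SE 0.25, adjusted p = 5.41e-08). Ptch1, the receptor and also a target, had 52.4 and 43.8 CPM in 67NR, 27.9 and 22.2 in 66c14, 8.49 and 5.98 in 4T1 and 8.7 and 7.29 in 4T1.2, a log2 fold change of 2.08 (SE 0.14, adjusted p = 7.04e-07). Hhip, a target that binds the ligands, was below the range with 0.0273 and 0.0162 CPM in 67NR, 0.287 and 0.156 in 66c14, 54.4 and 51.5 in 4T1 and 116 and 119 in 4T1.2, a log2 fold change of -8.94 (SE 0.34, adjusted p = 1.5e-08). The ligand Dhh, which was not outside the range, had 0 and 0.0649 CPM in 67NR, 0.0221 and 0 in 66c14, 34 and 36.3 in 4T1 and 25.7 and 29.6 in 4T1.2, so that 67NR and 66c14 were alike low. Targets of the pathway were thus on both sides.

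Of 18 immediate early genes, a list written after Egr1 had been seen, 3 were higher and 11 lower, with 1 above and 7 below the range and a median log2 fold change of -0.74. Egr1 is itself counted among those lower and below. The shares among all genes were 32.5% higher, 30% lower, 18.6% above and 16.4% below. Fos had 19.9 and 24.1 CPM in 67NR, 73.7 and 62.5 in 66c14, 63 and 58.4 in 4T1 and 80.0 and 102 in 4T1.2, a log2 fold change of -1.71 (SE 0.13, adjusted p = 2.3e-06). Fosb had 4.31 and 5.22 CPM in 67NR, 9.66 and 7.9 in 66c14, 39.7 and 40.2 in 4T1 and 45.7 and 57.2 in 4T1.2, a log2 fold change of -2.45 (SE 0.14, adjusted p = 3.24e-07). Jun had 136 and 132 CPM in 67NR, 164 and 185 in 66c14, 267 and 259 in 4T1 and 300.3 and 267 in 4T1.2, a log2 fold change of -0.81 (SE 0.08, adjusted p = 1.56e-05). The members higher in 67NR were Fosl1, Fosl2 and Klf4, with log2 fold changes of 0.73, 0.76 and 1.03, and Fosl1 was the member above the range. Junb, Ier2, Klf2 and Myc had no call.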
